A study of Mus musculus with 16 samples.

Results

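The genes described here are the mouse matrix metalloproteinases (Mmp), the membrane-anchored disintegrin metalloproteinases (Adam) and the secreted disintegrin metalloproteinases with thrombospondin repeats (Adamts). They were chosen by symbol alone: every gene of the array's probe table named Mmp, Adam or Adamts followed by a number and at most 1 letter, in any case. This gave 67 genes of the 17710 with a usable name, 21 Mmp, 27 Adam and 19 Adamts genes. They were measured by 79 probes, and where a gene had several, the probe with the highest mean deposited value stood for it. All of these proteases carry a zinc-dependent catalytic domain or one derived from it. Mmp enzymes cut collagens, gelatin, laminins and other matrix proteins and are held in check by tissue inhibitors (Timp). Adam proteins sit in the cell membrane and several of them release the outer part of other membrane proteins, while Adamts enzymes are secreted and cut proteoglycans, procollagens or von Willebrand factor. In the heart, several of these enzymes are known for remodelling the matrix after injury.

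From C57BL/6 mice of genotype Normal, 6 cell groups were compared on 16 arrays, and the study set cardiac progenitor cells against cardiomyocytes. The heart c-kit cells (3 arrays) were sorted from heart by flow cytometry for c-kit, a stem cell factor receptor, and the heart Sca1 cells (3 arrays) for Sca1 in the absence of CD45 and CD31, markers of blood and endothelial cells. The heart side population, here SP (2 arrays), was taken by its efflux of the dye Hoechst 33342. The marrow MSC (3 arrays) were mesenchymal stem cells grown for 5 passages, so that among these groups only their label names passages in culture. The marrow c-kit cells (3 arrays) were sorted for c-kit from bone marrow, and the cardiomyocytes (2 arrays, titled as control) were collected by a spin at 100 rpm for 1 min. All labels carry the same growth entry, Matrigel-coated dishes with mTeSR medium, and no agent or altered allele is named for any group. No label states that the replicates are separate animals or separate cultures. The p-values therefore measure only how far these arrays spread, and that spread may be technical. The number of animals, the sort purity and the cell numbers are not stated.

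Median spot intensity ran from 15 to 200 across the arrays, and it was lowest on both SP arrays (15 and 22) and on heart c-kit array 2 (18). Levels below are log2 Cy5 intensities, centred by the authors and quantile normalised here, on which 1 unit is a 2-fold change. They can be compared for 1 gene between arrays and not between genes. Each array carried 1 value repeated over many spots, read here as a fill value where no signal was measured. It stood for 2 to 11 of the 67 genes per array, 38 genes were never at it, and 3 were at it on 8 arrays or more. The highest intensity of any of these genes, 52856 for Mmp2, lay below the array maximum. Cardiomyocyte markers averaged 6.84 and 6.91 on the cardiomyocyte arrays, and at most 3.62 elsewhere. Fibroblast markers (11 of 12 listed measured) averaged 0.49 to 2.89 in heart c-kit cells, 6.14 to 6.43 in heart Sca1 cells, 5.50 to 5.74 in SP cells, 0.87 to 1.60 in MSC, -2.32 to -1.49 in marrow c-kit cells and 4.05 to 4.98 in cardiomyocytes. Endothelial markers (12 of 12) averaged 5.24 to 5.99 in heart c-kit cells and 6.58 to 6.98 in cardiomyocytes, and heart Sca1 array 3 stood apart from the other 2 Sca1 arrays at 5.55 against 1.23 and 2.18, although CD31-bearing cells had been gated out. Macrophage markers (9 of 13) averaged 3.10 to 4.66 in MSC and at most 3.33 on any other array. In none of these lists was a measured marker at the fill value on every array of a group. The part these other cells play in the protease levels was not tested, and in such bulk samples fewer cells of a type and less RNA per cell cannot be told apart.

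A group of 8 Mmp genes sits next to each other on mouse chromosome 9, in the order Mmp13, Mmp12, Mmp3, Mmp10, Mmp8, Mmp27, Mmp20 and Mmp7, with Mmp1b and Mmp1a, which no named probe measured here, among them. The 250 bases before the start of 4 of them are shown because these neighbours had unlike levels and because 3 of the 4 carry the letters TGANTCA, which an AP-1 factor is known to bind. Capitals mark those letters (the motif reads the same on both strands). The sequences are RefSeq windows of GRCm38.p6, plus strand, at chr9:7445572-7445821 for Mmp3, chr9:7502092-7502341 for Mmp10, chr9:7272264-7272513 for Mmp13 and chr9:7571146-7571395 for Mmp27.
Mmp3: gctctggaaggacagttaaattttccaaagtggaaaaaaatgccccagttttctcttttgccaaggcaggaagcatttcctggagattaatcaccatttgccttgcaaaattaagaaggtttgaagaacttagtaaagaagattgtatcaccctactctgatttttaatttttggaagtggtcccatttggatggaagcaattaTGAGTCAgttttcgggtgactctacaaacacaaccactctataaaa
Mmp10: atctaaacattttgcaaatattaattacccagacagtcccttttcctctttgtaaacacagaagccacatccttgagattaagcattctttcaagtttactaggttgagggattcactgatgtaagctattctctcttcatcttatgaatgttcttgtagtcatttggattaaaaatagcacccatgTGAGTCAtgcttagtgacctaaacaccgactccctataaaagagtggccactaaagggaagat
Mmp13: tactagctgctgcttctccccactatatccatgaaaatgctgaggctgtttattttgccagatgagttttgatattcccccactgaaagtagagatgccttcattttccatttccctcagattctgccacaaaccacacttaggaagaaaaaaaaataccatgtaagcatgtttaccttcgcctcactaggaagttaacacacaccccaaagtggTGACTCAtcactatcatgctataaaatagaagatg
Mmp27: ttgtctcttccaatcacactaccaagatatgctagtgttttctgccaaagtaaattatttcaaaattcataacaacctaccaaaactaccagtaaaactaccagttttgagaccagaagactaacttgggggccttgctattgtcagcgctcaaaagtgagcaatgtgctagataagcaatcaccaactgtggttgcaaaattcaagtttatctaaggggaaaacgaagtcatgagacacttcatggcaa
The motif began 46 bases before the start in Mmp3, 63 in Mmp10 and 35 in Mmp13, and Mmp27 held none in this window. Windows were available for 39 of the 67 genes. TGANTCA was found in 9 of these 39 (23.1%), against 7.82% of 27025 mouse genes with windows of the same length. Of these 9, 6 lie in the chromosome 9 cluster (Mmp3, Mmp7, Mmp10, Mmp12, Mmp13 and Mmp20), and the others were Adam19, Adam25 and Adam29. The TATA box letters TATAAA, searched on both strands, were in 9 of the 39 (23.1%), against 14.3% of genes. The letters AGGAAG of a PEA3 site, also on both strands, were in 14 (35.9%), against 32.3%. Matches of different motifs may overlap, and all of these are descriptions of letters, with no measured binding.

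Across the 6 groups, 25 of the 67 genes (37.3%) differed by the moderated F test of limma with Benjamini-Hochberg adjustment over all genes, against 31.9% of the 17710 genes. At an unadjusted p under 0.05, 31 of the 67 passed, against 44% of all genes. The share was uneven among the families: 9 of 21 Mmp, 5 of 27 Adam and 11 of 19 Adamts genes passed. Among Adamts genes, 6 of 7 proteoglycanases passed, 2 of 3 procollagen N-propeptidases and 3 of 9 others. Of the 25, marrow c-kit cells had the lowest mean for 16 and heart Sca1 cells had the highest for 10. MSC were highest for 6, SP cells for 4, cardiomyocytes for 3 and heart c-kit cells for 2 (Mmp3 and Mmp10). Of the 25, 21 stayed past the threshold whichever array was left out, and 18 did so under every alternative tried. The calls for Adam15, Adam9, Mmp20 and Adamts15 were lost when single arrays were left out.

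**Figure D1:**
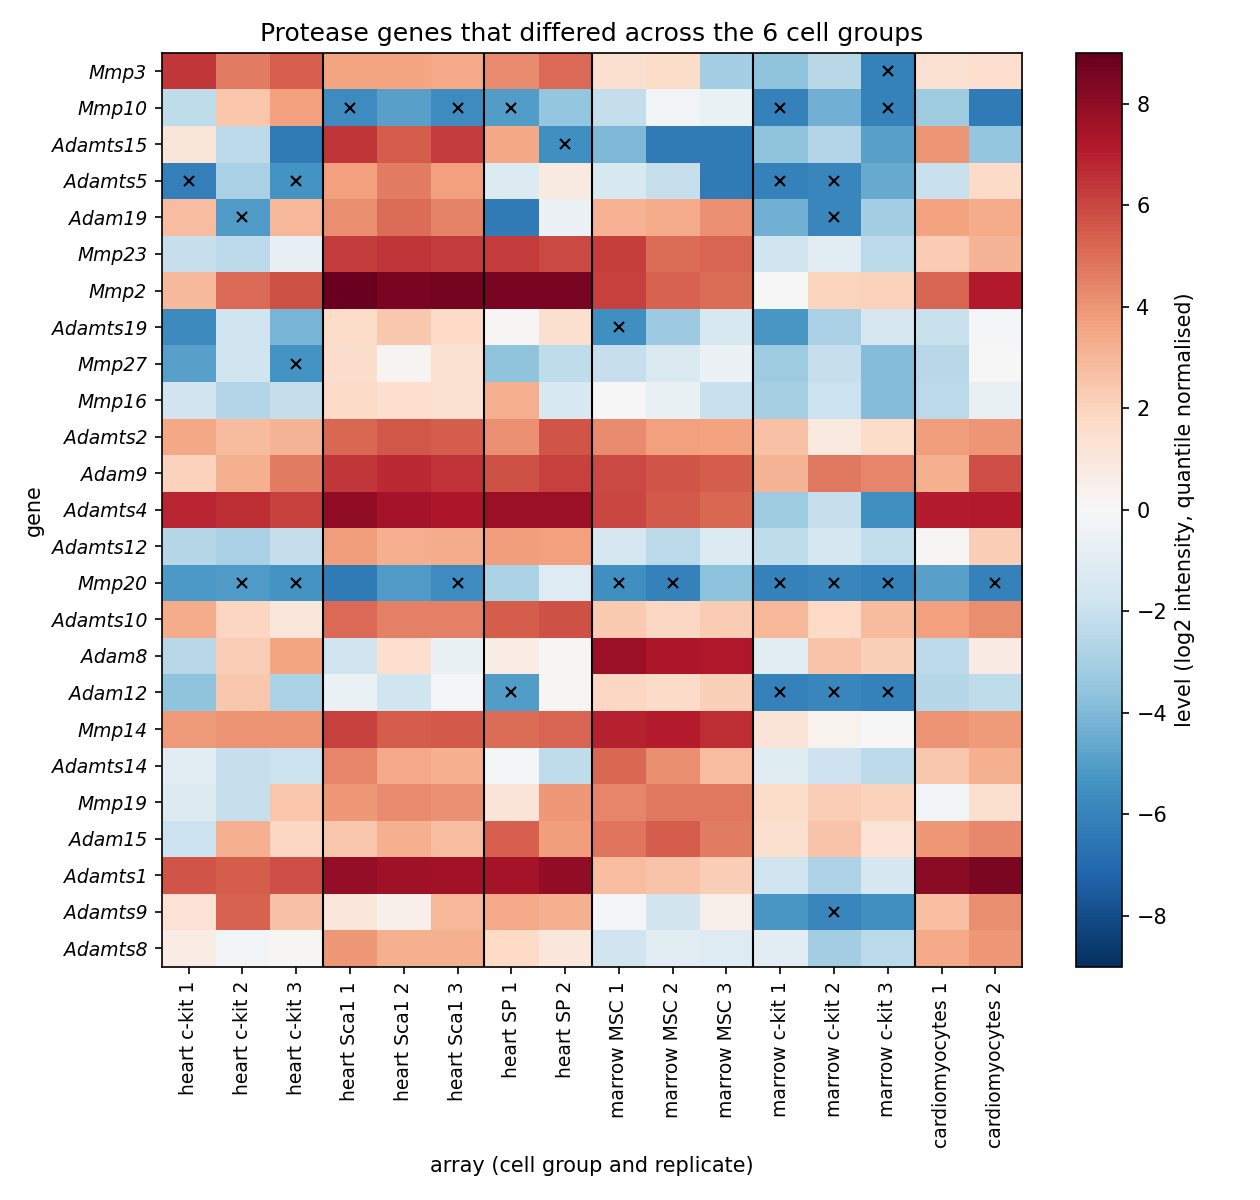
Levels (log2 intensity, quantile normalised) of the 25 protease genes that passed the F test, 1 row a gene and 1 column an array, with a cross where the array held the fill value. Rows are grouped by the cell group with the highest mean, and the marrow c-kit columns are lowest for 16 of them.

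Mmp2, gelatinase A, cuts denatured collagen and collagen IV. It had levels of 2.95, 5.13 and 5.75 on the heart c-kit arrays, 8.88, 8.56 and 8.61 on the heart Sca1 arrays, and 8.56 on both SP arrays. It had 6.14, 5.32 and 5.00 on the MSC arrays, 0.01, 1.97 and 2.05 on the marrow c-kit arrays, and 5.25 and 7.13 in cardiomyocytes. The heart Sca1 and SP arrays thus lay above every other array, with no overlap, and the marrow c-kit arrays below every other. Mmp2 was lower in heart c-kit than in heart Sca1 cells (log2 difference -4.08 ± 0.79, SE, adjusted p = 0.00469). Mmp9, gelatinase B, did not pass the F test (adjusted p = 0.13). Its levels were 1.34 to 4.19 in heart c-kit cells, 0.55 to 1.70 in heart Sca1 cells, 2.17 and 2.31 in SP cells, 2.04 to 4.79 on the MSC arrays, 1.56 to 2.12 on the marrow c-kit arrays, and 3.20 and 3.22 in cardiomyocytes. The heart c-kit and MSC arrays overlapped with most other groups.

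The stromelysins Mmp3 and Mmp10 cut proteoglycans, fibronectin and laminin and can activate other Mmp precursors. Mmp3 had 6.34, 4.61 and 5.36 in heart c-kit cells, 3.55, 3.58 and 3.43 in heart Sca1 cells, and 4.26 and 5.12 in SP cells. It had 1.42, 1.68 and -3.03 in MSC, -3.65, -2.50 and a fill value in marrow c-kit cells, and 1.39 and 1.54 in cardiomyocytes. The 8 arrays of the cardiac progenitor groups were all above the other 8. Mmp10, whose promoter is printed above beside that of Mmp3, had another pattern, with -2.25, 2.50 and 3.72 in heart c-kit cells and -2.16, -0.25 and -0.58 in MSC. It was at fill on 2 of 3 heart Sca1 arrays (the third at -4.88), 1 of 2 SP arrays (the other at -3.50) and 2 of 3 marrow c-kit arrays (the third at -4.29), and had -3.23 and -6.38 in cardiomyocytes. Its 3 heart c-kit values spread widely (SD 3.15), and with values under each array's 30th percentile set to that percentile it did not pass the F test (adjusted p = 0.133). Of the other genes of this list, Mmp11 (stromelysin 3) had an adjusted p of 0.0507 across groups, and Mmp7 and Mmp12 did not pass. The collagenases Mmp8 and Mmp13 did not pass either, and Mmp13 was at fill on 11 of 16 arrays and at most -2.08 on the others. Mmp27, which like Mmp8 held no AP-1 letters in its window, had 1.60, 0.26 and 1.34 in heart Sca1 cells and at most 0.01 elsewhere, on cardiomyocyte array 2. Mmp20, enamelysin, was at fill on 9 of 16 arrays and had its highest values, -2.83 and -1.13, on the dim SP arrays.

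Mmp14 is a membrane-type Mmp that cuts fibrillar collagen at the cell surface and activates the Mmp2 precursor. Its levels were 3.82, 4.06 and 4.04 in heart c-kit cells, 6.17, 5.48 and 5.54 in heart Sca1 cells, and 5.05 and 5.23 in SP cells. They were 6.94, 7.10 and 6.62 on the MSC arrays, 1.19, 0.32 and 0.01 on the marrow c-kit arrays, and 4.01 and 3.83 in cardiomyocytes. The order of means was MSC, heart Sca1, SP, heart c-kit, cardiomyocytes and marrow c-kit, in which only heart c-kit cells and cardiomyocytes, as neighbours, overlapped. Of the other membrane-type genes, Mmp16 passed the F test, with 1.74, 1.53 and 1.40 in heart Sca1 cells. Its SP arrays disagreed, at 3.25 and -1.35, and its other groups stayed below 0. The intensity on SP array 1 was 333, against 411, 355 and 303 on the heart Sca1 arrays, so its higher level there depends on the normalisation. Mmp15 had 5.76 and 5.99 in cardiomyocytes and spread over more than 4 log2 units within each of the cardiac progenitor groups, with an adjusted p of 0.0515. Mmp17, Mmp24 and Mmp25 did not pass.

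Mmp23, a membrane-associated protease of unusual domain make-up that is released by a proprotein convertase, separated the groups most widely among the Mmp genes by the F statistic. It had -2.08, -2.35 and -0.75 in heart c-kit cells, 6.33, 6.45 and 6.31 in heart Sca1 cells, and 6.27 and 5.92 in SP cells. It had 6.21, 5.01 and 5.27 on the MSC arrays, -1.82, -1.05 and -2.44 on the marrow c-kit arrays, and 2.27 and 3.04 in cardiomyocytes. The 6 arrays of c-kit sorted cells, from heart and from marrow, overlapped with each other and lay below all 10 others. Mmp19 was low in heart c-kit cells as well, at -1.20, -2.08 and 2.51, against 3.93, 4.25 and 4.15 in heart Sca1 cells, and was highest in MSC at 4.41, 4.76 and 4.72. Mmp21 and Mmp28 did not pass.

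**Figure D2:**
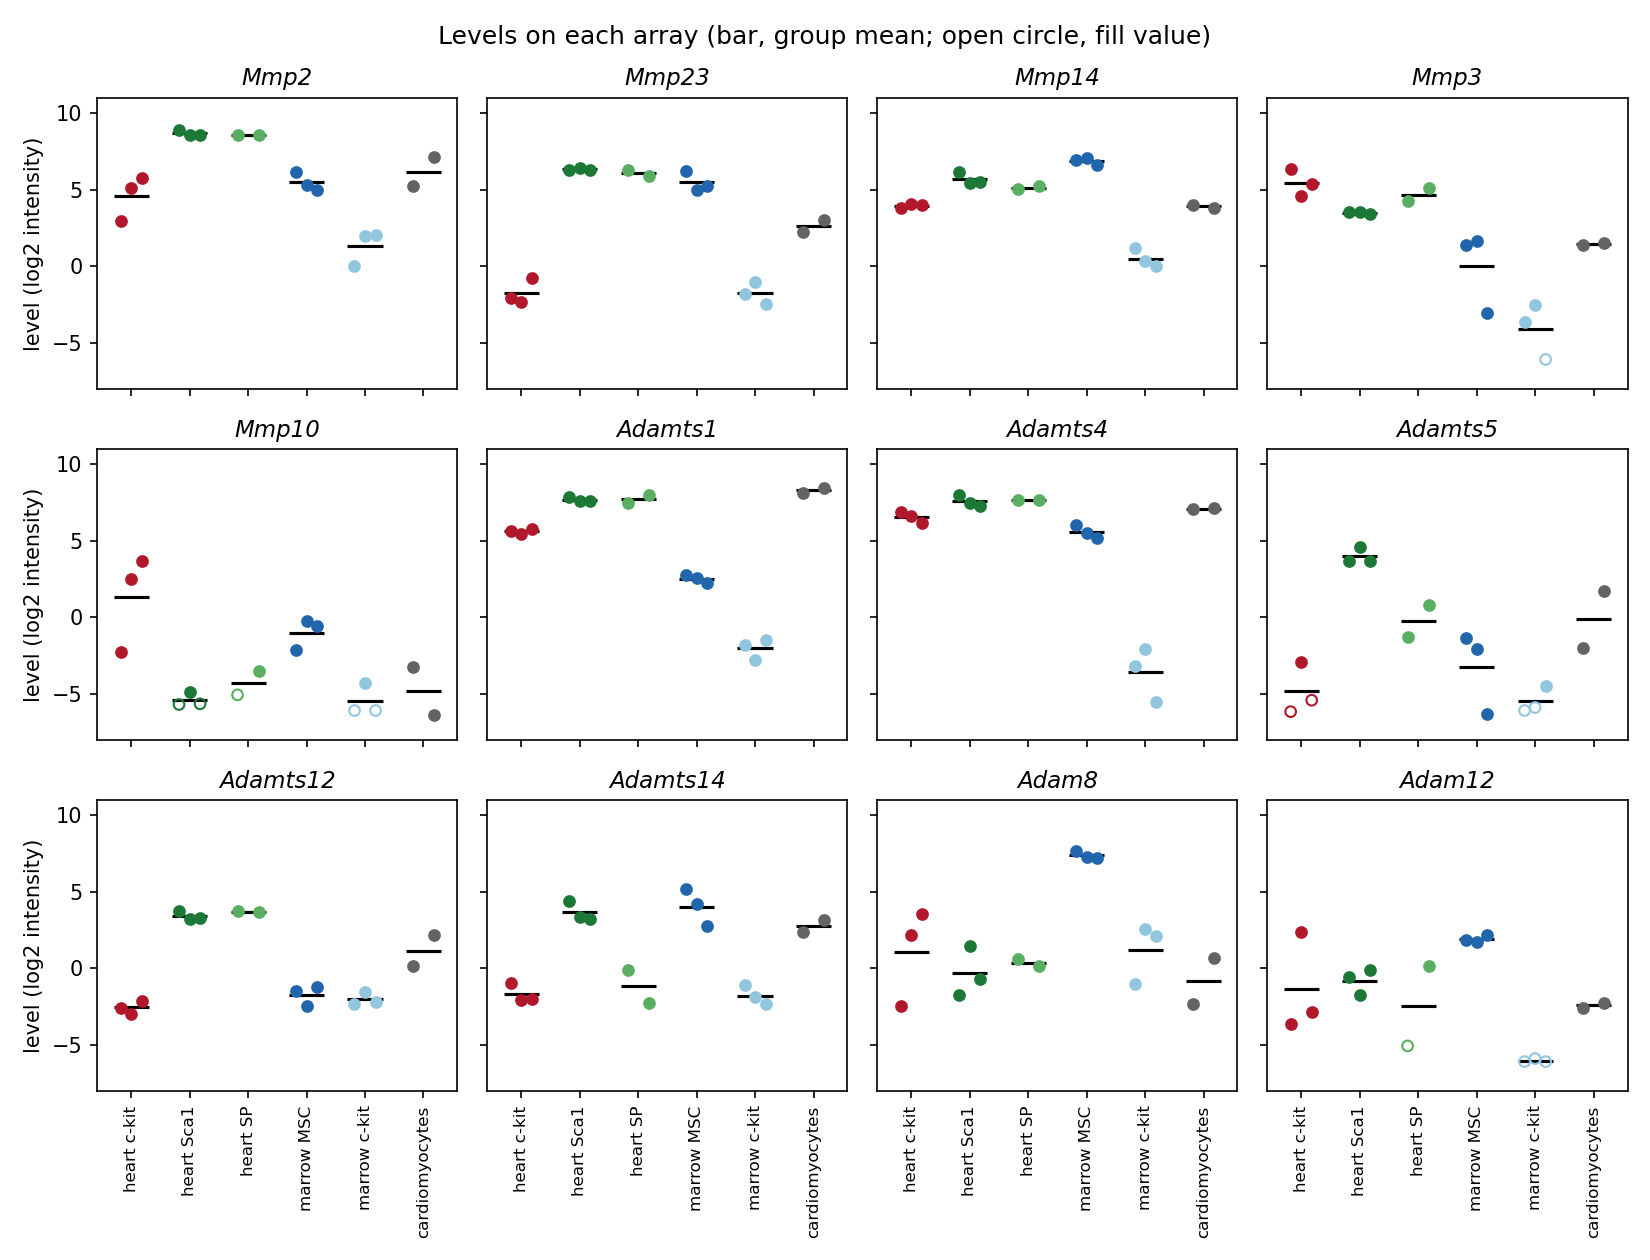
Levels (log2 intensity) of 12 protease genes on each of the 16 arrays, by cell group, with the group mean as a bar and fill values as open circles. Mmp23 is below 0 on all c-kit sorted arrays and above 5 on all heart Sca1, SP and MSC arrays, and Adamts1 is above 5 on all heart arrays.

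Among the Adamts proteoglycanases, which cut aggrecan and versican, Adamts1 had the largest F statistic of all 67 genes (adjusted p = 2.05e-07). Its levels were 5.68, 5.48 and 5.77 in heart c-kit cells, 7.89, 7.61 and 7.59 in heart Sca1 cells, 7.48 and 7.98 in SP cells, and 8.12 and 8.48 in cardiomyocytes. In marrow they were 2.78, 2.55 and 2.23 for MSC and -1.82, -2.78 and -1.49 for c-kit cells. All 10 heart arrays were above all 6 marrow arrays. Adamts4 had 6.88, 6.63 and 6.16 in heart c-kit cells, 8.01, 7.49 and 7.29 in heart Sca1 cells, 7.70 and 7.68 in SP cells, and 7.06 and 7.14 in cardiomyocytes. MSC had 6.04, 5.51 and 5.17, and the marrow c-kit arrays, at -3.18, -2.05 and -5.50, were the only ones below 5. Adamts9, which also cuts versican, was lowest in marrow c-kit cells as well, at -5.26, a fill value and -5.50, against -0.15, -1.62 and 0.45 in MSC and 0.47 or more on every heart array.

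Adamts5, the neighbour of Adamts1 on chromosome 16, differed from it in pattern. It had 3.72, 4.58 and 3.67 in heart Sca1 cells, while 2 of 3 heart c-kit arrays and 2 of 3 marrow c-kit arrays were at fill and the third of each had -2.95 and -4.50. SP cells had -1.26 and 0.79, MSC -1.37, -2.08 and -6.33, and cardiomyocytes -2.02 and 1.75, so the heart Sca1 arrays were above all 13 others. The neighbours Adamts8 and Adamts15 on chromosome 9 were both high in heart Sca1 cells. Adamts8 had 3.87, 3.17 and 3.18 there, 3.40 and 3.89 in cardiomyocytes, 0.65, -0.22 and 0.19 in heart c-kit cells, 1.77 and 1.00 in SP cells, and below 0 on all 6 marrow arrays. Adamts15 had 6.42, 5.42 and 6.30 in heart Sca1 cells, but its replicates disagreed elsewhere: 1.08, -2.35 and -6.33 in heart c-kit cells, 3.52 and a fill value in SP cells, and 3.98 and -3.49 in cardiomyocytes. Adamts20 did not pass the F test.

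The procollagen N-propeptidases Adamts2, Adamts3 and Adamts14 trim the amino end of fibrillar procollagens. Adamts14 had 4.38, 3.39 and 3.22 in heart Sca1 cells, 5.20, 4.19 and 2.75 in MSC, and 2.41 and 3.18 in cardiomyocytes. It was below 0 on every array of the other groups, with -0.95, -2.08 and -1.97 in heart c-kit cells, -0.07 and -2.27 in SP cells, and -1.11, -1.87 and -2.32 in marrow c-kit cells. Its SP level is unlike that of Mmp2 and Mmp23, for which both SP arrays were within 0.6 of the heart Sca1 mean. Adamts2 spread less between groups, with 3.50, 2.86 and 3.02 in heart c-kit cells, 5.18, 5.56 and 5.47 in heart Sca1 cells and 2.62, 0.89 and 1.62 in marrow c-kit cells. Adamts3 did not pass.

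Adamts12, which cuts cartilage oligomeric matrix protein, had 3.74, 3.25 and 3.33 in heart Sca1 cells, 3.74 and 3.71 in SP cells, and 0.14 and 2.19 in cardiomyocytes. It was at most -1.22 on all heart c-kit, MSC and marrow c-kit arrays. A second probe for Adamts12, lower in mean over all arrays, had the same sign for heart c-kit minus heart Sca1 cells (-8.31). It gave -1.97 for SP cells minus cardiomyocytes, against 2.56 for the probe used, and 5.37 for MSC minus marrow c-kit cells, against 0.30, so those differences depend on the probe. On the second probe SP cells averaged -0.33 and heart Sca1 cells 4.07, so the likeness of these groups did not hold there. On the probe used, intensities were 528 and 676 in SP cells and 1665, 1197 and 1095 in heart Sca1 cells, so the likeness also depends on the normalisation. Adamts10, which binds fibrillin microfibrils, had 5.11, 4.50 and 4.51 in heart Sca1 cells and 5.46 and 5.72 in SP cells, above the arrays of all other groups. Adamts19 had 1.62, 2.44 and 1.82 in heart Sca1 cells, 0.14 and 1.45 in SP cells, and values below 0 on all other arrays. Its intensities were only 17 and 86 on the dim SP arrays, against 34 and 197 in cardiomyocytes. The rank of SP cells above cardiomyocytes thus depends on the normalisation. Adamts6, Adamts7, Adamts13, Adamts16, Adamts17 and Adamts18 did not pass.

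Of the 9 somatic Adam genes with protease activity, 5 passed the F test. Adam8, a leukocyte-associated sheddase, had 7.66, 7.26 and 7.22 in MSC and at most 3.58 on any other array (heart c-kit array 3). The macrophage markers averaged 4.66, 4.56 and 3.10 on the MSC arrays. They averaged 2.12 and 3.33 on the cardiomyocyte arrays, where Adam8 had -2.33 and 0.72, and 2.16 to 2.95 on the marrow c-kit arrays, where Adam8 had -1.03, 2.56 and 2.13. Adam12, meltrin alpha, had 1.85, 1.72 and 2.17 in MSC, was at fill on all 3 marrow c-kit arrays, and had -3.63, 2.41 and -2.83 in heart c-kit cells. Adam19, meltrin beta, which is needed for heart valve and septum formation in mice, had 4.21, 5.06 and 4.47 in heart Sca1 cells, 3.15, 3.35 and 4.12 in MSC, and 3.61 and 3.32 in cardiomyocytes. It had 2.75 and 2.99 on 2 heart c-kit arrays and the fill value on the dim array 2, and -6.30 and -0.51 in SP cells. Adam9 was highest in heart Sca1 cells at 6.37, 6.73 and 6.51, against 2.10, 3.18 and 4.62 in heart c-kit cells. Adam15 had 4.81, 5.48 and 4.68 in MSC and -1.94, 3.22 and 1.83 in heart c-kit cells, and its second probe gave a smaller MSC minus marrow c-kit difference (1.07, against 3.26). The main sheddases Adam10 and Adam17, singled out here after their values were seen, did not pass (Adam17 had 5.07 or more on 15 of 16 arrays and 0.93 on heart c-kit array 2), nor did Adam28 and Adam33. None of the 3 somatic Adam genes without protease activity (Adam11, Adam22, Adam23) passed, and none of the 15 others, most of them known from testis or epididymis. Of those 15, Adam1b came nearest, with an adjusted p of 0.0537.

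Heart c-kit cells were set against heart Sca1 cells, sorted from the same organ by another marker. Of the 67 genes, 17 (25.4%) passed in limma with adjustment over all genes, against 11.2% of all genes, and 16 of the 17 were lower in heart c-kit cells (23.9%, against 7.87% of all genes that were lower). Of the 16, 9 were Adamts genes (Adamts1, Adamts2, Adamts5, Adamts8, Adamts10, Adamts12, Adamts14, Adamts15 and Adamts19), 6 were Mmp genes (Mmp2, Mmp14, Mmp16, Mmp19, Mmp23 and Mmp27), and Adam9 was the only Adam gene. In each of the 17 the arrays of both groups did not overlap. Selection by p-value favours this, and it was not counted over all genes, so it adds no support. Mmp23 averaged -1.73 ± 0.86 in heart c-kit cells and 6.36 ± 0.07 in heart Sca1 cells (SD, n = 3 each), a difference of -8.09 ± 0.58 (SE, adjusted p = 2.14e-06). Adamts12 differed by -5.99 ± 0.59 (adjusted p = 3.29e-05), Adamts14 by -5.33 ± 0.75 (adjusted p = 0.000449), Adamts5 by a fitted -8.83 ± 1.30 (adjusted p = 0.00066) and Adamts8 by -3.20 ± 0.59 (adjusted p = 0.00345). Mmp27 differed by -5.10 ± 0.96 and Adamts19 by -5.86 ± 1.19, and these 7 genes kept the call under every alternative. Mmp10 was the 1 gene that was higher (adjusted p = 0.00425), against 3.31% of all genes that were higher. Its intensities were 43, 201 and 1309 in heart c-kit cells, against 3 and 2 fill values in heart Sca1 cells, and those of Adamts5 were 4 and 2 fill values in heart c-kit cells, against 1640, 2796 and 1358 in heart Sca1 cells. Against a group so near the fill value, here and below, a fitted difference gives the direction and its size depends on that value. The direction was not shared by all 67: 33 of the differences were above 0, and their median was -0.00, against 0.23 for all genes. With medians aligned in place of quantile normalisation it was 0.26, against 0.73. The fibroblast markers were also lower in heart c-kit cells for 9 of 11 and 6 of 12 endothelial markers were higher. The mast cell markers (8 of 10 measured) averaged -0.49 to 0.60 in heart c-kit cells and -2.59 to -0.82 in heart Sca1 cells, and 3 of 8 were higher (Cpa3, Cma1 and Tpsb2). Cma1, mast cell chymase, had intensities of 663, 858 and 782 in heart c-kit cells and at most 109 on any other array. Other mast cell markers did not follow it: Fcer1a, Ms4a2, Tpsab1 and Hdc had fill values or intensities of at most 12 in heart c-kit cells. The part of these cells in the differences was not tested. Without heart c-kit array 2 and heart Sca1 array 3, which stood apart in signal or endothelial markers, 8 of the 17 genes passed, all lower (6.66% of all genes passed). With the medians of the arrays aligned and no quantile normalisation, 11 passed (7.83% of all genes), of which 10 were lower. With only these 6 arrays in the fit, 10 passed (4.44% of all genes), all lower.

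**Figure D3:**
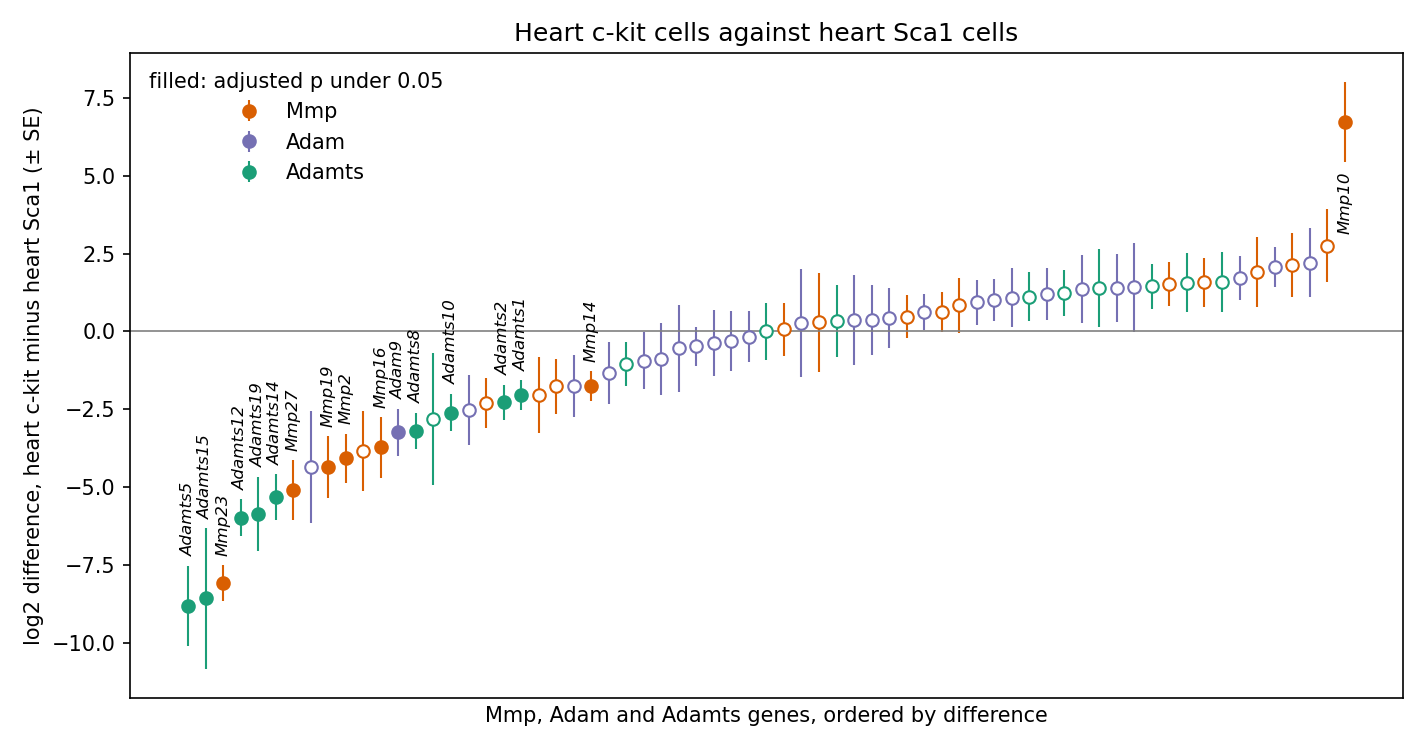
Log2 difference, heart c-kit minus heart Sca1 cells, with its SE for all 67 protease genes in order of size (n = 3 arrays each). Filled points passed an adjusted p of 0.05, and of these 17, Mmp10 is the only one above 0.

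In the comparison the study names, cardiac progenitor cells against cardiomyocytes, few protease genes were called. Heart c-kit cells differed from cardiomyocytes in 6 genes (8.96%), against 3.6% of all genes, 1 of them higher (0.999% of all genes) and 5 lower (2.6% of all genes). Mmp10 was higher (adjusted p = 0.0302), with the heart c-kit intensities given above set against 15 and 1 in cardiomyocytes. Mmp23 (-4.38 ± 0.65, adjusted p = 0.00228), Adamts14 (-4.46 ± 0.83), Adamts12 (-3.71 ± 0.66), Adamts8 (-3.44 ± 0.66) and Adamts1 (-2.66 ± 0.54) were lower. The median difference of the 67 genes was -0.33, against 0.13 for all genes, and its sign turned with medians aligned (0.30, against 0.83). The call for Mmp23 alone held when cardiomyocyte array 2 was left out or arrays were weighted, that for Mmp10 alone with medians aligned, and none in a fit of the 5 arrays of both groups, where 3 of all genes passed. Heart Sca1 cells gave no call among these 67 or among all genes (0%). At an unadjusted p under 0.05, 15 of the 67 passed (22.4%), against 11.7% of all genes. The smallest adjusted p among them was that of Mmp23, 0.0925, which averaged 6.36 in heart Sca1 cells and 2.66 in cardiomyocytes. The differences of largest size were 5.80 for Adamts15, -4.28 for Mmp15, 4.13 for Adamts5 and 3.70 for Mmp23. With the same floor at the 30th percentile, 5 genes were called, all higher in heart Sca1 cells, against 1.84% of all genes. Without heart Sca1 array 3, 1 gene was called, against 0.926% of all genes. SP cells differed in 3 genes (4.48%), against 5.2% of all genes (1.91% higher and 3.29% lower). Mmp23 was higher by 3.44 ± 0.71 (adjusted p = 0.0162) and Adamts14 was lower (difference -3.97 ± 0.91, adjusted p = 0.0253). The third was Mmp20 (adjusted p = 0.0295), with intensities of 4 and 13 in SP cells and 6 and a fill value in cardiomyocytes, too low for a size or direction to be read from it. None of these 3 passed when cardiomyocyte array 1 was left out. With medians aligned only, 11 genes passed, all higher in SP cells, while 14.8% of all genes passed. On that scale all genes had a median difference of 1.34. Markers of other cells moved with these comparisons. The macrophage markers averaged -0.40 to -0.01 in heart c-kit cells and -2.72 to -2.32 in SP cells, against 2.12 to 3.33 in cardiomyocytes. The smooth muscle and pericyte markers averaged -0.29 to 1.86 in heart c-kit cells and 1.72 to 2.12 in SP cells, against 4.10 to 4.18 in cardiomyocytes. Fibroblast and endothelial values are given above, and the part of all these cells was not tested.

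Heart c-kit cells against marrow c-kit cells compared cells sorted by the same marker from both organs. In this comparison 9 genes passed (13.4%), against 10.8% of all genes. All 9 were higher in heart c-kit cells, while 4.89% of all genes were higher and 5.93% lower. The median difference was 0.67 over the 67 genes and 2.41 over the 7 proteoglycanases, against 0.11 for all genes. The proteoglycanases Adamts4, Adamts1 and Adamts9 were higher by 10.13 ± 0.71 (adjusted p = 1.11e-06), 7.67 ± 0.48 (adjusted p = 4.4e-07) and 8.61 ± 0.95 (adjusted p = 3.55e-05), and Adamts8 by 2.41 ± 0.59. Mmp3 was higher by 9.52 ± 1.12 (adjusted p = 6.21e-05), Mmp14 by 3.46 ± 0.48 (adjusted p = 0.000242) and Mmp2 by 3.26 ± 0.79. Mmp10 was also higher, against 1 intensity of 5 and 2 fill values in marrow c-kit cells. Those cells had intensities of 1, 1 and a fill value for Adamts9, 6, 13 and a fill value for Mmp3, and 8, 17 and 1 for Adamts4. Adamts8 was low in both groups, with 166, 17 and 63 in heart c-kit cells and 26, 9 and 13 in marrow c-kit cells. Its call was lost under 6 alternatives, and its second probe gave a smaller difference of 1.54. The bound for Adam12, at fill on all marrow c-kit arrays, is set against their lowest other signal, or the fill value where that was higher. It assumes that a fill spot held no more signal than that, which cannot be checked because the rule behind the fill value is not known. By its group mean Adam12 was at least 18.4-fold higher (adjusted p = 0.0462). That call was lost under 15 of the alternatives (adjusted p from 0.054 to 0.454), among them the fit without heart c-kit array 2, which held 2.41. The calls for Adamts1, Adamts4, Adamts9, Mmp3 and Mmp14 held under every alternative. Endothelial markers were higher in heart c-kit cells for 9 of 12 and neutrophil markers lower for 7 of 9, and their part in these differences was not tested.

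Marrow MSC against marrow c-kit cells gave 13 calls (19.4%), against 11% of all genes, all 13 higher in MSC, while 7.37% of all genes were higher and 3.66% lower. The median difference of the 67 genes was 0.48, against -0.14 for all genes. Adamts4 was higher by 9.15 ± 0.71 (adjusted p = 1.9e-06), Mmp23 by 7.27 ± 0.58 (adjusted p = 2.27e-06), Mmp14 by 6.38 ± 0.48 (adjusted p = 1.31e-06), Adamts14 by 5.81 ± 0.75, Adamts1 by 4.55 ± 0.48 and Mmp2 by 4.14 ± 0.79. The marrow c-kit arrays were at fill for Adam12, and by the same bound and assumption it was at least 176-fold higher (adjusted p = 0.00177). These 7 calls held under every alternative tried. The other 6 were Adam8, Adam19, Adamts2, Adamts9, Mmp3 and Mmp10, of which Adamts2 and Mmp3 were lost under 6 alternatives each and Mmp10 under 9. For Mmp3 the arrays of both groups overlapped, since MSC array 3 had -3.03. Neutrophil markers were lower in MSC for 8 of 9, and their part was not tested. MSC had been passaged and marrow c-kit cells sorted, so cell type and passage in culture cannot be told apart.

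Heart Sca1 cells against marrow MSC gave 12 calls (17.9%), against 10.3% of all genes, 9 higher and 3 lower in heart Sca1 cells (5.3% and 5.01% of all genes). Of the 9, 7 were Adamts genes. The median difference was 0.27 over the 67 genes and 1.92 over the 19 Adamts genes, against -0.10 for all genes. Adamts1 was higher by 5.18 ± 0.48 (adjusted p = 2.11e-05), Adamts12 by 5.15 ± 0.59 (adjusted p = 9.87e-05), Adamts8 by 4.75 ± 0.59 (adjusted p = 0.000165), Adamts5 by 7.25 ± 1.30 (adjusted p = 0.00238) and Adamts15 by 11.62 ± 2.27 (adjusted p = 0.00427). Adamts19 (5.36 ± 1.19), Adamts10 (2.53 ± 0.60), Mmp2 (3.20 ± 0.79) and Mmp11 (3.08 ± 0.80) were also higher. MSC intensities were a fill value, 19 and 22 for Adamts19 and 3, 1 and 1 for Adamts15, so those 2 sizes depend on values near the fill. Adam8 was lower (difference -7.69 ± 1.42, adjusted p = 0.00294), and Mmp10 (-4.41 ± 1.28) and Mmp9 (-2.63 ± 0.78) were lower with adjusted p-values of 0.043 and 0.0473. The first 5 Adamts genes and Adam8 held under every alternative, while the calls for Mmp10 and Mmp9 were lost under 12 and 15. Of the 12, 7 kept the call when heart Sca1 array 1 was left out. The fibroblast markers were higher for 6 of 11 and 6 of 9 macrophage markers lower in heart Sca1 cells, and their part was not tested. Organ and passage in culture cannot be told apart here either.

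The heart minus marrow difference in c-kit cells was then compared with that of heart Sca1 cells minus MSC. The terms share no arrays. The Sca1 minus MSC term sets sorted against passaged cells, so organ and culture cannot be told apart in it. Its groups were also unlike in markers: fibroblast markers averaged 6.29 in heart Sca1 cells and 1.28 in MSC, and macrophage markers -0.13 in heart Sca1 cells and 4.11 in MSC. The difference between the terms passed for 12 of the 67 genes (17.9%), against 7.46% of all genes, with 8 values above 0 (3.66% of all genes) and 4 below (3.8% of all genes). For Adamts4 the difference was 10.13 in c-kit cells and 2.03 for Sca1 minus MSC, and these differed by 8.11 ± 1.01 (adjusted p = 0.000279). For Mmp14 it was 3.46 in c-kit cells and -1.16 for Sca1 minus MSC, a difference of 4.62 ± 0.67 (adjusted p = 0.000912). Adamts12 was the reverse, with -0.54 in c-kit cells and 5.15 for Sca1 minus MSC, a difference of -5.69 ± 0.84 (adjusted p = 0.000958). These 3 held under every alternative tried, although for Adamts12 the second probe gave a smaller value of -2.94. The count was 5 to 7 when any of 8 arrays was left out (each marrow c-kit array, each heart Sca1 array, and MSC arrays 1 and 2), and 6 without heart c-kit array 2 and heart Sca1 array 3 together. Of all genes, 4.83% to 5.84% passed without any of those 8 arrays, and 5.56% without both.

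**Figure D4:**
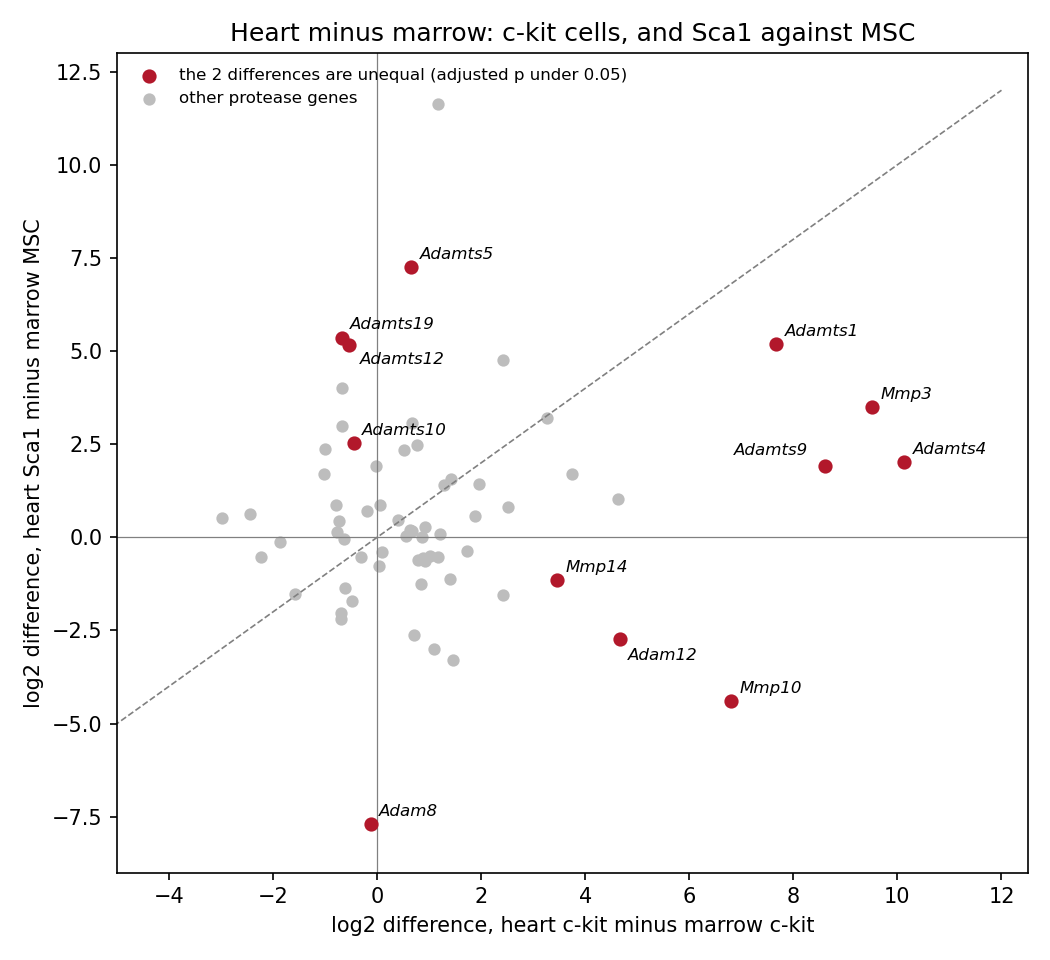
Log2 difference of heart minus marrow for the 67 protease genes, c-kit sorted cells on the horizontal axis and heart Sca1 minus MSC on the vertical axis. The 12 named points, off the dashed line of equal differences, had an adjusted p under 0.05 for the difference between the axes, and Adamts4 lies at 10.13 and 2.03.

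The inhibitors of these enzymes were measured on the same arrays, 7 of the 8 listed. Across groups 5 passed the F test (Timp1, Timp2, Timp3, Timp4 and Serpine2), against 31.9% of all genes, and Reck, a membrane-bound inhibitor, did not. Timp2, which takes part in the activation of the Mmp2 precursor by Mmp14, had 2.05, 4.55 and 2.34 in heart c-kit cells, 9.28, 9.06 and 9.23 in heart Sca1 cells, 8.92 and 9.13 in SP cells, and 0.37, 0.83 and 1.57 in marrow c-kit cells. Like Mmp2 and Mmp14, it was lower in heart c-kit than in heart Sca1 cells (difference -6.21 ± 0.64, adjusted p = 4.63e-05). Timp1 had 5.16, 3.18 and 5.75 in heart c-kit cells and 7.62, 7.22 and 7.86 in MSC, against a fill value, -4.29 and -4.22 in marrow c-kit cells. Of 17 listed activators and chaperones, 7 passed, against the same 31.9%. Pcsk6, a proprotein convertase that can bind the matrix, had 8.22, 8.17 and 8.19 in heart Sca1 cells, against 3.23, 1.80 and 1.43 in heart c-kit cells and 0.20, 1.67 and 2.41 in MSC. Plaur, the urokinase receptor, was higher in heart c-kit than in heart Sca1 cells by 3.75 ± 0.66 (adjusted p = 0.00241), with 6.38, 6.61 and 7.21 against 3.31, 2.54 and 3.11. Also called in that comparison were Timp3 (-3.72), Furin (2.00), Pcsk7 (2.46) and Tspan33 (3.38). Timp3 intensities were 65449, 65452 and 65154 on the heart Sca1 arrays, at or near the array maximum, which limits the size of its difference. Pcsk7 and Tspan33 did not pass the F test (adjusted p = 0.135 and 0.132). Of the 23 listed matrix and shed substrates, 21 were measured and 17 passed the F test, again against 31.9%. Versican (Vcan), a substrate of the Adamts proteoglycanases, was lower in heart c-kit than in heart Sca1 cells (difference -6.56 ± 0.84, adjusted p = 0.000249), and aggrecan (Acan) did not differ past the threshold (0.60 ± 0.68, adjusted p = 0.599).

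**Figure D5:**
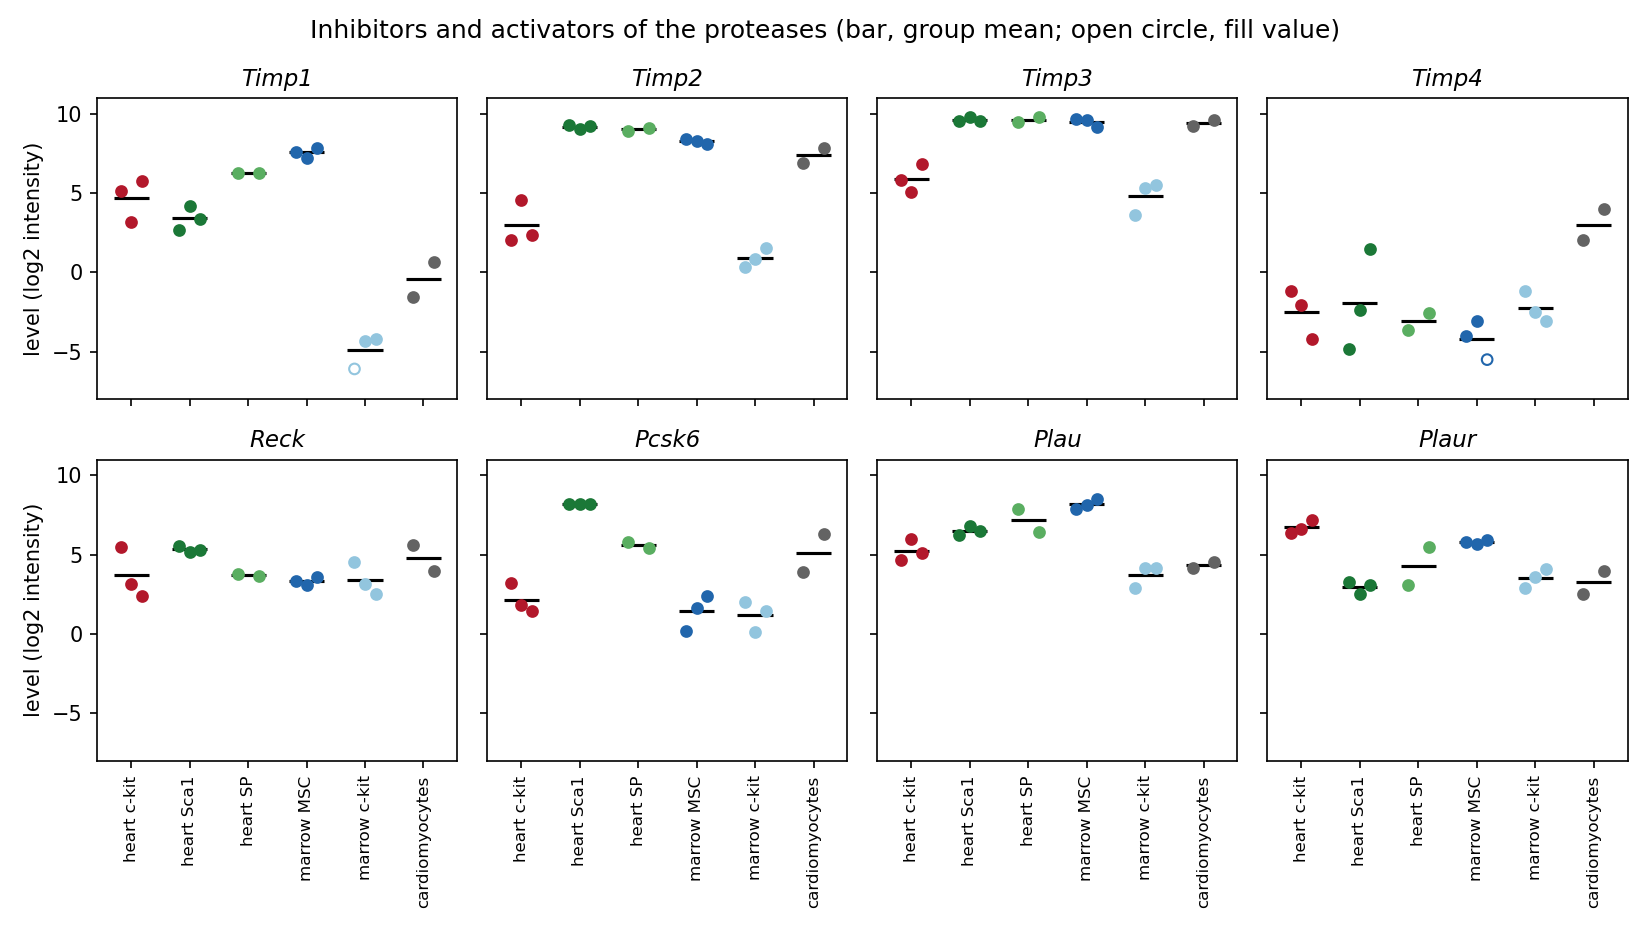
Levels (log2 intensity) of 5 inhibitors and 3 activators of the proteases on each of the 16 arrays, by cell group, with the group mean as a bar and fill values as open circles. Timp2 is above 8 on all heart Sca1, SP and MSC arrays and below 5 on all c-kit sorted arrays, and Pcsk6 is highest on the 3 heart Sca1 arrays.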

How the data were processed

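Amplified cDNA was labelled with Cy5 and hybridised to a 2-colour array whose Cy5 channel alone was used, per the labels' protocols and design text. The authors deposited log2 values centred on each array's mean (MSC array 3 had a mean of 0.300). Adding a constant per array and raising 2 to the result returned whole intensities for all spots under 200 within 0.005, the fill spots left out, so the deposited values hold log2 intensity. The sources used here do not name the scanner, the background correction or the rule behind the fill value. The number of arrays limits the precision. Of 26423 probes, 20377 had a symbol, matched to current RefSeq names as 18213 current and 2126 older symbols, with 38 ambiguous and left out, giving 17710 genes. Array medians ran from -1.02 to 0.43, over the 0.5 tolerance, so all probes were quantile normalised. The probe with the highest mean stood for its gene. Differences were fitted with limma 3.58.1 in R 4.3.3 as 6 group means over 16 arrays with lmFit and eBayes. Benjamini-Hochberg adjustment ran over all genes, with calls at 0.05. Checks on simulated data preceded the fits. Figures and tables used python 3.11.15, pandas 2.3.3 and matplotlib 3.10.9. A gene with nothing but fill values in a group has a lower bound as the fold change of its group mean. This is set against the lowest other signal on each array, or the fill value where that was higher. It is a bound only if fill spots held no more signal than that.

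Genes given with values were drawn from those past the F test or called in a contrast, the 4 with the largest difference where a contrast called fewer than 4, the 2 with the widest range in each role list, and Timp1 to Timp4, Reck and called regulators. Not all of these are printed, the inhibitors and activators least of all. Vcan, Acan, Adam10 and Adam17 were added after their values were seen. The members, lists and tests were chosen with earlier results of these data known. Replicate numbers recur between groups: over 36 same-numbered pairs the correlation of deviations ran from -0.183 to 0.399 (median 0.00766, 4 over 0.1), so the numbers were not taken to pair arrays. Those 4 (0.203, 0.316, 0.32 and 0.399) all lay among marrow c-kit, heart c-kit and cardiomyocyte arrays. Pairs of unlike number were not computed, and a source shared by those arrays was not tested. Alternatives were other normalisations, probe means, a filter or floor on low values, array weights, other moderation, the replicate block, fits of the compared groups alone and leaving out each array. No table column was left unused.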

Additional observations from a re-analysis of the deposited data

Results flagged for a closer look

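For 12 genes the heart minus marrow difference was not the same in c-kit sorted cells as between heart Sca1 cells and MSC, by the test of the difference itself in limma with adjustment over all genes. Each value below is the log2 difference in c-kit cells less the heart Sca1 minus MSC one. MSC had been passaged, so organ and culture cannot be told apart in the second term.

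The value was above 0 for 8 genes. For the proteoglycanases it was 8.11 for Adamts4 (10.13 in c-kit cells against 2.03), 6.70 for Adamts9 (8.61 against 1.92) and 2.49 for Adamts1 (7.67 against 5.18). Among the Mmp genes it was 11.2 for Mmp10 (6.81 against -4.41), 6.02 for Mmp3 (9.52 against 3.50) and 4.62 for Mmp14 (3.46 against -1.16). It was 7.58 for Adam8 (-0.12 against -7.69), whose levels were highest on the MSC arrays. The fitted value was 7.39 for Adam12, whose marrow c-kit arrays were all at fill, so that its size depends on that fill value. The bound for its c-kit term, an at least 18.4-fold higher level in heart under the assumption given above, is one for the group mean. It rests on heart c-kit array 2, since the intensities of the 3 arrays were 18, 182 and 6. The sizes for Mmp10, Adamts5, Adamts9 and Mmp3 also depend on the fill value, since 2 of 3, 2 of 3, 1 of 3 and 1 of 3 marrow c-kit arrays were at fill. Mmp10 was at fill on 2 of 3 heart Sca1 arrays as well, and Adamts5 on 2 of 3 heart c-kit arrays. The size for Adamts19 depends on the fill value too, since MSC array 1 was at fill. For Adamts4 the marrow c-kit intensities were 8, 17 and 1, so its size depends on values near the fill.

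The value was below 0 for 4 Adamts genes: -5.69 for Adamts12 (-0.54 against 5.15), -6.60 for Adamts5 (0.65 against 7.25), -6.04 for Adamts19 (-0.68 against 5.36) and -2.98 for Adamts10 (-0.45 against 2.53). In these the heart Sca1 cells were high and both c-kit sorted groups low. For Adamts12 the intensities were 34, 4 and 9 in heart c-kit cells and 13, 25 and 15 in marrow c-kit cells, so its c-kit term sets low signal against low signal. The adjusted p-values of the 12 ran from 0.000279 for Adamts4 to 0.0499 for Adamts10. Of the 12, 5 kept the call whichever array was left out (Adamts4, Adamts9, Adamts12, Mmp10 and Mmp14). Fibroblast markers gave values below 0 for 3 of 11 and neutrophil markers for 6 of 9 in the same test, and their part was not tested.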

How the results depend on the processing

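No called difference of a named gene changed sign under the alternatives, but the median difference of the 67 genes for heart c-kit cells minus cardiomyocytes did (-0.33, and 0.30 with medians aligned), as did that for heart c-kit minus heart Sca1 cells (-0.00 and 0.26). With medians aligned in place of quantile normalisation the counts were 1 for heart c-kit cells against cardiomyocytes, 11 for SP cells against cardiomyocytes and 11 for heart c-kit against heart Sca1 cells, on a scale that moved the median difference of all genes to 0.83, 1.34 and 0.73. Of all genes, 0.836%, 14.8% and 7.83% passed there. A floor at the 30th percentile gave 5 calls for heart Sca1 cells against cardiomyocytes, where 1.84% of all genes passed. Array weights gave 1 and 0 for heart c-kit and SP cells against cardiomyocytes, 25 for heart Sca1 cells against MSC and 20 for MSC against marrow c-kit cells. Under these weights 1.37%, 0.723%, 24.1% and 24.7% of all genes passed, so the higher counts came with more calls among all genes. Fits of the compared groups alone gave 0 and 0 for heart c-kit and SP cells against cardiomyocytes, 10 for heart c-kit against heart Sca1 cells and 20 for heart Sca1 cells against MSC. In those fits 0.0169%, 0%, 4.44% and 21.8% of all genes passed. Without heart c-kit array 2 and heart Sca1 array 3, chosen after seeing the data, the counts were 1 for heart Sca1 cells against cardiomyocytes, 8 for heart c-kit against heart Sca1 cells and 6 for the difference between both heart minus marrow terms. The shares of all genes that passed were 0.926%, 6.66% and 5.56%.

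Leaving out each array gave 22 to 29 genes across the 6 groups, 1 to 8 for heart c-kit cells, 0 to 1 for heart Sca1 cells and 0 to 4 for SP cells against cardiomyocytes. It gave 12 to 20 for heart c-kit against heart Sca1 cells, 7 to 10 against marrow c-kit cells, 7 to 13 for heart Sca1 cells against MSC, 10 to 15 for MSC against marrow c-kit cells and 5 to 13 for the difference between both heart minus marrow terms. Where this left 1 array in a group, it was assumed to vary like the others. At the low and high ends of these ranges, 27.3% and 34.9% of all genes passed across the 6 groups, and 9.04% and 10.2% for heart c-kit against heart Sca1 cells. The shares were 7.2% and 11.8% against marrow c-kit cells, 7.08% and 12% for heart Sca1 cells against MSC, and 8.07% and 13% for MSC against marrow c-kit cells. For heart Sca1 cells against cardiomyocytes they were 0% and 0.926%. At the high end, 2.9% passed for heart c-kit cells and 7.42% for SP cells against cardiomyocytes. At the low end, 4.94% passed for the difference between both heart minus marrow terms. The remaining ends came from fits that left 1 array in a group, and their shares are not given. With the replicate block the counts were 27 across groups, 6, 0, 3, 17, 9, 13 and 13 in the pairwise comparisons in the same order, and 11 for the difference between both heart minus marrow terms. The shares of all genes were 29.2%, then 2.96%, 0%, 4.33%, 10.7%, 10.5%, 9.77% and 10.6%, and last 6.95%. The cause of these changes was not tested. Signal limits the low genes: 29 of the 67 were at the fill value on 1 or more arrays.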
